A study of Mus musculus with 32 samples.

Results

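The comparison set 6 Ovgp1-BPR tumours against 8 OSE-BPR tumours, which are 14 of the 32 RNA sequencing libraries of a mouse ovarian carcinoma study. They were chosen by their labels, every tumour of either model being taken. Ovgp1-BPR had 3 GEMM tumours, grown in the engineered animal itself, and 3 allografts, grown after transfer to another animal. OSE-BPR had 3 GEMM tumours and 5 allografts. The other 12 tumours, of the Ad-BPR and Pax8-BPR models, served only to show whether a level in either model stands apart. The 6 libraries of normal ovary and oviduct served only for levels per transcript length. Both models carried floxed Brca1 on both alleles (Brca1 fl/fl) and K18GT121 Tg/+, a transgene that inhibits Rb once Cre recombinase has acted. OSE-BPR mice were FVB females with Trp53 fl/fl, and Cre came from an adenovirus injected beneath the bursa of the ovary to start tumours from the ovarian surface epithelium. No promoter that would restrict this Cre to a cell type is named. Ovgp1-BPR mice were C57Bl/6 females whose sample labels give Trp53 KozR172H ki/+ and Ovgp1-CreERT2 Tg/+, a tamoxifen-activated Cre of oviduct secretory cells. The series text calls that driver Ovgp1-iCreERT2 and names the R172H mutation, yet lists Trp53 fl/fl for the model, and this conflict was not resolved. Tumours were taken at endpoint, months after induction, and ages are not stated. The site of origin, the strain, the Trp53 allele and the way Cre was delivered all changed together, so differences between the models cannot be told apart by these factors. The labels do not say which tumour an allograft came from. Allografts may share a source or come from a GEMM tumour of the same fit, so the libraries may not be independent. The p-values measure only the spread between these samples.

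The ovarian surface epithelium is a single layer continuous with the mesothelium that lines the body cavity, and both derive from the coelomic epithelium together with the early gonad. It carries mesothelial surface proteins and the coelomic regulators Wt1 and Gata4, and it lacks Pax8, the transcription factor of Mullerian duct epithelium from which the oviduct forms. The oviduct lining consists of secretory cells, which make the glycoprotein Ovgp1, and of ciliated cells, whose program is set by Foxj1.

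The Trp53 alleles are the labelled genetic difference, so the reference codon to which the R172H label refers is shown first. GENCODE transcript models of Trp53 start at different codons, and codon 172 read from the start of transcript Trp53-203 (390 codons) is an arginine codon in exon 5, R being the letter of arginine. It lies at chr11:69588511-69588513 of GRCm38 on the + strand. Counted from the start of Trp53-201 (387 codons), codon 172 is another codon and not one for arginine. The reference bases around it, at chr11:69588490-69588534, are given with codon 172 in capitals.
Trp53 codon 172 window: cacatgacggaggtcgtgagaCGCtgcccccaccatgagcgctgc

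Trp53 (chromosome 11, 69580359 to 69591873, ENSMUSG00000059552.13), which encodes the tumour suppressor p53, was far higher in the model labelled with the R172H knock-in. Its lowest, median and highest levels were 8.7, 13.4 and 16.3 CPM (counts with each library scaled to the same total) in OSE-BPR and 104, 128 and 164 in Ovgp1-BPR. All 6 Ovgp1-BPR tumours lay above all 8 OSE-BPR tumours, and the log2 fold change was 3.36 ± 0.17 (standard error, as throughout; edgeR adjusted p = 2.2e-08). In Ad-BPR and Pax8-BPR, which are C57Bl/6 like Ovgp1-BPR but Trp53 fl/fl like OSE-BPR, Trp53 was at 12.9 to 43 CPM. Per transcript length, the median Trp53 level was 137 TPM in Ovgp1-BPR, 13.9 in OSE-BPR, 111 in normal ovary and 80.1 in normal oviduct. The gene totals separate neither the mutant from the normal allele nor reads inside the floxed part from reads outside it, so they show a level and not a genotype. Brca1, a homologous recombination gene floxed in both models, stood at 18.2 to 38.6 CPM in OSE-BPR and 27.9 to 52.4 in Ovgp1-BPR. Its log2 fold change of 0.48 ± 0.20 was not called (adjusted p = 0.08). Rb1, the gene of a protein the transgene acts on, was not called either (0.42 ± 0.19, adjusted p = 0.1). Cdkn2a, a cell cycle brake whose transcript builds up in cells without Rb function, differed by 0.02 ± 0.22 (adjusted p = 0.96). Krt18, the keratin whose promoter names the transgene, was at 449.8 to 979.8 and 180.2 to 867 CPM, with a difference of -0.34 ± 0.35 that did not pass (adjusted p = 0.48).

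The 14 libraries held 13.99 M to 20.19 M assigned counts, and 16717 genes entered the test. With kind (GEMM or allograft) as a covariate, edgeR's quasi-likelihood test called 5423 genes at a Benjamini-Hochberg adjusted p below 0.05, 32.4% of those tested. Of them 2679 were higher in Ovgp1-BPR (16%) and 2744 lower (16.4%). Over all tested genes the log2 fold change had a median of -0.01. The first principal component, with 46.6% of the variance, placed OSE-BPR at -97.7 to -36 and Ovgp1-BPR at 64.9 to 115.9. The second, with 17.1%, split both models: Ovgp1-BPR GEMM replicate 1 (80.9) and allograft replicate 3 (91.3) lay far from the remaining 4 of that model (-55.3 to -28.1). Likewise OSE-BPR GEMM replicate 1 and allograft replicates 2 and 5 (26.4 to 75.9) lay above the other 5 (-63.3 to -15.8). Spearman correlations of log2 CPM ran from 0.831 to 0.922 over the 48 pairs between models and had the same lowest value, 0.889, among the 28 OSE-BPR and the 15 Ovgp1-BPR pairs. The highest values within each model were between a GEMM tumour and an allograft. In OSE-BPR, GEMM replicate 2 and allograft replicate 4 had 0.99. In Ovgp1-BPR, GEMM replicate 3 and allograft replicate 1 had 0.9768, and GEMM replicate 1 and allograft replicate 3 had 0.9715. Whether such pairs share a source was not tested. Counts of the main gene lists are also given without Ovgp1-BPR GEMM replicate 1 and allograft replicate 3. In that fit 2860 of 17356 genes were higher and 3466 lower. The 2 were picked by their place on the second component of these same data. They also lay nearest to OSE-BPR on the first, at 64.9 and 67. OSE-BPR GEMM replicate 1 and allograft replicates 2 and 5 were kept, so the removal is on 1 side only, and calls rose from 5423 to 6326. In bulk tumour RNA, fewer cells of a type and less RNA per cell cannot be told apart.

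**Figure D1:**
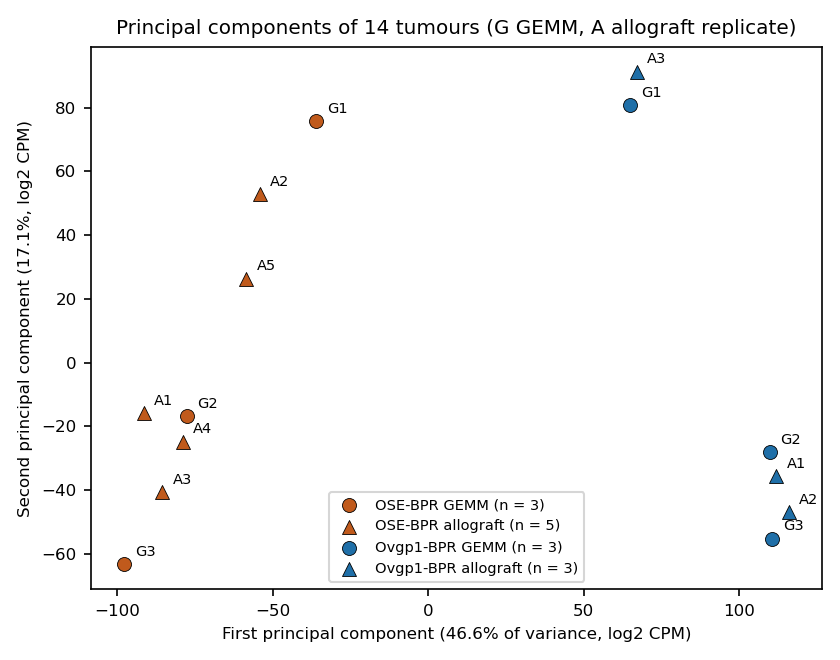
First and second principal components of log2 CPM over 14 tumours, with circles for GEMM tumours, triangles for allografts, and labels giving kind and replicate. The models separate along the first component, and Ovgp1-BPR GEMM replicate 1 and allograft replicate 3 sit at 80.9 and 91.3 on the second.

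Most mesothelial genes were higher in both models than in the other 2. The pair of models was chosen for this, so the counts that follow describe the choice and do not test it. Of 28 tested genes of the ovarian surface epithelium and mesothelium list, 20 were above the mean of Ad-BPR and Pax8-BPR in Ovgp1-BPR, where 24% of all genes were, and 20 in OSE-BPR, where 30.1% were. Another 6 members were below that mean in Ovgp1-BPR and 4 in OSE-BPR, where 22.8% and 29.2% of all genes were. These 2 comparisons share the Ad-BPR and Pax8-BPR tumours and were run in a fit of 26 tumours. Upk3b, a uroplakin of the mesothelial surface, had lowest, median and highest levels of 548, 923 and 1276 CPM in OSE-BPR and 297, 966 and 2064 in Ovgp1-BPR, against 0.331 to 27.1 in the 12 other tumours. Per length, its median was 489 TPM in OSE-BPR and 525 in Ovgp1-BPR, compared with 29.7 in normal ovary. The models overlapped throughout for Upk3b, with a difference of 0.18 ± 0.35 (adjusted p = 0.72). Bnc1, a zinc-finger factor of mesothelium, was at 59.1 to 335 and 29.6 to 367 CPM (0.04 ± 0.50, adjusted p = 0.96) and at 0.17 to 15.8 in the other models. Gpm6a, a membrane glycoprotein, was at 61.4 to 250.2 and 28.7 to 459 (0.58 ± 0.51, adjusted p = 0.42). Lrrn4, a leucine-rich repeat membrane protein, was at 39.4 to 295 and 62.2 to 689 (1.26 ± 0.53, adjusted p = 0.085). Upk3b, Bnc1, Gpm6a, Lrrn4 and Gata4 were chosen after their values were seen. Msln, the mesothelial surface protein mesothelin, did not follow them. It was at 10.7 to 85 CPM in OSE-BPR, 3.97 to 119.5 in Ovgp1-BPR and 18.4 to 412 in the other models, and the OSE-BPR and Ovgp1-BPR levels did not differ past the threshold (0.20 ± 0.65, adjusted p = 0.84).

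Within the mesothelial list 5 genes were higher in Ovgp1-BPR, 4 were lower and 19 were not called, with a median log2 fold change of 0.07. That is 32.1% called, against 32.4% of all genes. Upk1b, another uroplakin, had the largest rise of these. Its lowest, median and highest levels were 2.25, 4.05 and 8.64 CPM in OSE-BPR and 30.4, 47.9 and 127 in Ovgp1-BPR. The models did not overlap, and the log2 fold change was 3.66 ± 0.34 (adjusted p = 8.7e-06). Its OSE-BPR level was within the 0.145 to 11.3 CPM of the other 2 models. Nkain4, which interacts with the sodium pump, was higher by 1.81 ± 0.38 (adjusted p = 0.0034; 4.38 to 25.5 against 19.7 to 75.9 CPM). Pdpn, the mucin-type protein podoplanin, was higher by 1.37 ± 0.26 (adjusted p = 0.0017; 115 to 305 against 202 to 640.4). Both overlapped through Ovgp1-BPR allograft replicate 3, the lowest of its model at 19.7 and 202 CPM. Wt1, the coelomic transcription factor, was above the 12.7 to 311 CPM of the other 2 models in both, at 653, 1027 and 1051 CPM in OSE-BPR and 555, 685 and 759 in Ovgp1-BPR. It was lower in Ovgp1-BPR by 0.48 ± 0.14 on the log2 scale (adjusted p = 0.018). That call was lost without Ovgp1-BPR allograft replicate 1 (adjusted p = 0.06), and it was also lost in GEMM tumours alone (0.43), in allografts alone (0.091) and with all 26 tumours in the fit (0.32). Gata4, a coelomic and gonadal factor, was also lower, at 186 to 386 against 357 to 616 CPM (-0.78 ± 0.21, adjusted p = 0.012), and at 0.37 to 42.7 in the other models. The list's summed level was 6833 to 10800 CPM in OSE-BPR and 6164 to 11130 in Ovgp1-BPR. Without the 2 Ovgp1-BPR tumours that stand apart, 8 members were higher and 8 lower. Over the fits that each left out 1 tumour 3 to 6 were higher and 2 to 5 lower. The count of 3 came without OSE-BPR GEMM replicate 2 or allograft replicates 4 or 5, or Ovgp1-BPR GEMM replicate 2 or allograft replicate 2, and the count of 2 without Ovgp1-BPR allograft replicate 1.

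**Figure D2:**
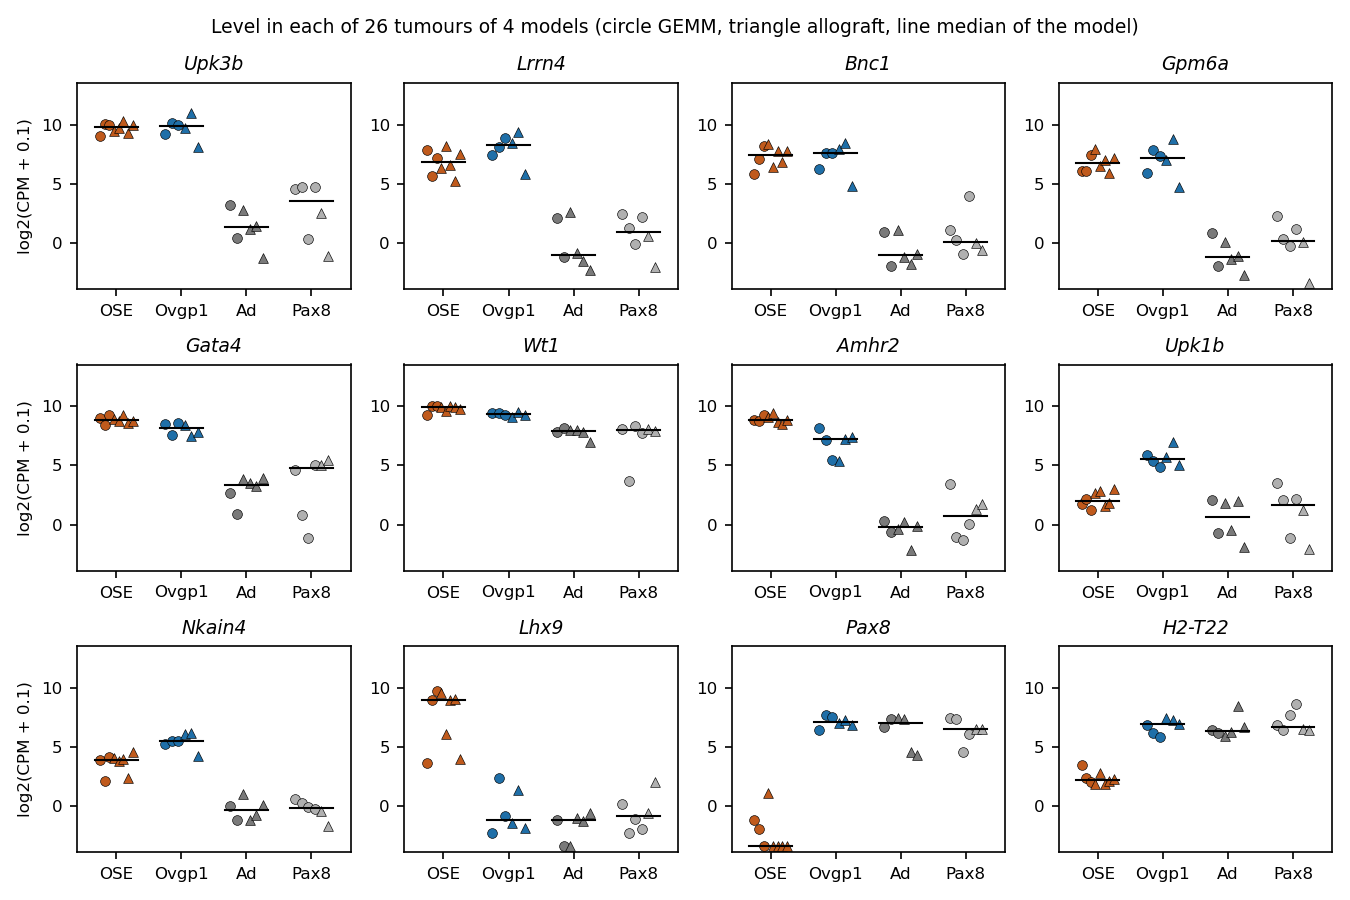
Level of 12 genes in each of 26 tumours, as log2(CPM + 0.1), by model, with circles for GEMM tumours, triangles for allografts and a line at each model's median. Upk3b, Lrrn4, Bnc1, Gpm6a, Gata4 and Amhr2 are high in OSE-BPR and Ovgp1-BPR and low in Ad-BPR and Pax8-BPR, Lhx9 is high in OSE-BPR, and Pax8 and H2-T22 are low in OSE-BPR.

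Genes of oviduct secretory cells were higher in Ovgp1-BPR. Of 14 tested, 11 were higher and 0 lower, with a median log2 fold change of 3.28. Of all genes 16% were higher, with a median of -0.01. Members such as Pax8 and Lhx1, near 0 counts in OSE-BPR, entered the test through the Ovgp1-BPR tumours and could only be called higher. The counts and the median of the list are thus partly set by the minimum for the test. Without the 2 tumours that stand apart 10 were higher and 1 lower, and 6 genes of the list were too low to test (Dcpp1, Hoxa9, Hoxa10, Hoxa11, Ltf and Wnt7a). In OSE-BPR 9 of the tested genes were below the mean of Ad-BPR and Pax8-BPR and 3 above. In Ovgp1-BPR 3 were below that mean and 4 above. Among all genes 29.2% were below and 30.1% above in OSE-BPR, and 22.8% and 24% in Ovgp1-BPR. Pax8 (chromosome 2, 24420560 to 24475599), the Mullerian lineage factor, had lowest, median and highest levels of 0, 0 and 2.2 CPM in OSE-BPR and 87.6, 144 and 215 in Ovgp1-BPR, a log2 fold change of 8.79 ± 0.94 (adjusted p = 2.4e-05). No tumours overlapped, and the Ovgp1-BPR levels were within those of Ad-BPR (19.5 to 172) and Pax8-BPR (24.1 to 168) apart from 2 above them. Per length, the median was 121 TPM in Ovgp1-BPR and 68.4 in normal oviduct. Lhx1, a LIM homeobox factor of the Mullerian duct, stood at 0.277 to 20 CPM against at most 0.198 in OSE-BPR (7.02 ± 0.91, adjusted p = 0.00012). Msx1, a homeobox factor, was at 2.8 to 37.9 against 0.129 to 1.41 CPM (5.47 ± 0.71, adjusted p = 0.00012). Msx2, its relative, is not in this list and was named for its fold change. Msx2 was at 1.33 to 32.7 against at most 0.285 CPM (8.43 ± 1.01, adjusted p = 6.7e-05). Cd24a, a cell surface glycoprotein of secretory and progenitor cells, was at 11.5, 117 and 463 CPM against 1.19, 3.66 and 17 (4.89 ± 0.90, adjusted p = 0.0014). Its highest tumours were Ovgp1-BPR allograft replicate 3 and GEMM replicate 2. The Ovgp1 gene, whose promoter drives Cre in this model, was uneven. It was at 836 CPM in Ovgp1-BPR GEMM replicate 1 and 8.64 to 37.6 in the other 5, against 4.19 to 15.5 in OSE-BPR (3.11 ± 1.03, adjusted p = 0.034). It was 1.50 without GEMM replicate 1 (adjusted p = 0.0115) and 1.74 without both tumours that stand apart (adjusted p = 0.0022). The call was lost in 5 of the 14 fits that left out 1 tumour (adjusted p up to 0.082). These were the fits without OSE-BPR GEMM replicates 1, 2 or 3, OSE-BPR allograft replicate 2 or Ovgp1-BPR allograft replicate 2.

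Of 17 tested ciliated cell genes, 5 were higher in Ovgp1-BPR and 1 was lower, with a median of 0.39. The share called, 35.3%, was near the 32.4% of all genes. The counts were 4 and 2 without the 2 tumours that stand apart, and 2 were lower without OSE-BPR or Ovgp1-BPR GEMM replicate 1. The summed level was 330.3 to 527 CPM in Ovgp1-BPR and 333 to 537 in OSE-BPR. Foxj1, the master regulator of motile cilia, was at 0.748, 21.7 and 38.8 CPM in Ovgp1-BPR and 0.0646, 0.412 and 1.71 in OSE-BPR (lowest, median, highest). The difference was 4.98 ± 0.87 (adjusted p = 0.001). It was lowest in Ovgp1-BPR allograft replicates 2 and 1, which lay at or near the OSE-BPR range. The Ad-BPR and Pax8-BPR tumours were at 13.9 to 339 CPM. Cfap44, a cilia axoneme protein, was higher by 3.84 ± 0.86 (adjusted p = 0.0045). Ak7, an adenylate kinase of cilia, was lower by 3.28 ± 0.97 (adjusted p = 0.02; 0.0535 to 6.26 against 7.35 to 40.8 CPM). The 7 other list genes, among them Mcidas, Ccno and Hydin, were too low to test.

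Gonadal and coelomic transcription factors changed in both directions. Of 28 tested, 5 were higher in Ovgp1-BPR and 8 were lower, with a median of -0.47 and 46.4% called. Of all genes 16% were higher and 16.4% lower, so the higher count was near the background. The counts were 7 and 11 without the 2 tumours that stand apart. Leaving out Ovgp1-BPR GEMM replicate 2 or allograft replicate 2 left 3 higher, and leaving out Ovgp1-BPR allograft replicate 1 left 5 lower. Lhx9 (chromosome 1, 138825186 to 138848577), a LIM homeobox factor needed for gonad formation, was at 12.9, 511 and 853 CPM in OSE-BPR and 0.111, 0.378 and 5.35 in Ovgp1-BPR. No tumours overlapped and Lhx9 was lower in Ovgp1-BPR by 8.20 ± 1.38 (adjusted p = 0.00078), while the 12 other tumours stood at 0 to 3.93 CPM. Inside OSE-BPR it was low in the 3 tumours that stand apart. It was at 12.9 in GEMM replicate 1, 70.6 in allograft replicate 2 and 16.8 in allograft replicate 5, against 506 to 853 in the other 5. Per length, the OSE-BPR median was 274 TPM and normal ovary was at 6.22. Irx3, an Iroquois homeobox factor of the developing ovary, was at 35.2 to 544 CPM in OSE-BPR and 3.44 to 12 in Ovgp1-BPR (-5.33 ± 0.67, adjusted p = 9.4e-05). Its lowest OSE-BPR levels were in the same 3 tumours. Its neighbour and relative Irx5 was lower by 3.23 ± 0.64 (adjusted p = 0.0022). Nr0b1, the orphan receptor DAX1 of gonads and adrenals, was at 34.3 to 169 CPM in OSE-BPR and had no count in 4 Ovgp1-BPR tumours. It stood at 17.3 and 12.8 in Ovgp1-BPR GEMM replicate 1 and allograft replicate 3 (-4.50 ± 1.32, adjusted p = 0.019). Going the other way, Nr2f1, an orphan nuclear receptor, was at 11.2 to 52.9 CPM in Ovgp1-BPR and 0.0625 to 2.85 in OSE-BPR (5.79 ± 0.81, adjusted p = 0.00022). Tbx2, a T-box repressor, was higher by 4.17 ± 0.83 (adjusted p = 0.0023). Tbx2 reached 123 to 332 CPM in 4 Ovgp1-BPR tumours and was 14.5 and 10.8 in the 2 that stand apart, within the OSE-BPR range of 2.97 to 30.9.

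Of 12 tested granulosa, theca and luteal cell genes, 1 was higher in Ovgp1-BPR and 3 were lower (median -2.01). That is 33.3% called, near the 32.4% of all genes. Their summed level was 679 to 1710 CPM in OSE-BPR and 112 to 671 in Ovgp1-BPR. Amhr2, the receptor of anti-Mullerian hormone, also found on the coelomic epithelium, was at 369, 482 and 691 CPM in OSE-BPR, 41.3, 152 and 298 in Ovgp1-BPR and 0.128 to 10.8 in the 12 other tumours. It was lower in Ovgp1-BPR by 1.85 ± 0.40 (adjusted p = 0.0038) with no overlap. Nr5a1, the steroidogenic factor SF1, stood at 148 to 315 CPM in OSE-BPR, at 80 and 67.4 in Ovgp1-BPR GEMM replicate 1 and allograft replicate 3, and at 0.06 to 1.93 in the other 4. Its fold change was -3.19 ± 1.12 with all 14 tumours (adjusted p = 0.043) and -7.68 without those 2 (adjusted p = 7e-06). The fits that left out 1 tumour kept the call only without Ovgp1-BPR GEMM replicates 1 or 2 or allograft replicate 3, and lost it in the other 11 (adjusted p up to 0.075). Without the 2 tumours 0 members of the list were higher and 8 lower. The lower count was 6 without Ovgp1-BPR GEMM replicate 1 and 1 without OSE-BPR GEMM replicate 1 or allograft replicates 1, 2, 3 or 5. The higher count was 0 in 9 of those 14 fits. The defining granulosa and steroid genes Fshr, Lhcgr, Cyp19a1 and Cyp11a1 were too low to test in either model.

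The next 2 paragraphs give the 12 genes with the largest fold change each way among called genes whose mean reached 10 CPM in the higher model, with no overlap of tumours and the same sign in GEMM tumours and allografts, predicted genes left out. As higher in Ovgp1-BPR 674 genes met this, 51 of them predicted genes or receptor segments, and as lower 641 did, with 87 such genes. Over all genes tested, 5.35% lay wholly above OSE-BPR and 5.91% wholly below it. Nell1 (chromosome 7, 49974864 to 50866608), a secreted protein of bone and nerve development, was at 38.9, 174 and 398 CPM in Ovgp1-BPR and 0, 0.141 and 1.07 in OSE-BPR (9.49 ± 0.71, adjusted p = 1.2e-06), and at most 1.22 in the other 2 models. Nxph1, the secreted neurexin ligand neurexophilin, was at 5.14, 61.1 and 284 CPM in Ovgp1-BPR and had 3 counts in all 8 OSE-BPR libraries together, so only levels are given. Ryr3, an intracellular calcium release channel, was higher by 9.22 ± 0.78 (adjusted p = 3.2e-06; 5.15 to 61.1 against at most 0.279 CPM). Cacna2d3, a calcium channel subunit, was higher by 7.39 ± 1.08 (adjusted p = 0.00029; 18.7 to 106 against 0 to 3.19), and Ctnnd2, the delta-catenin of cell junctions, by 8.59 ± 0.91 (adjusted p = 2.4e-05). Slc6a2, the noradrenaline transporter, Slc14a1, a urea transporter, Avpr1a, a vasopressin receptor, and Fam47e had fold changes of 7.26 to 8.36 (adjusted p between 5.8e-05 and 0.00014), each at most 0.713 CPM in OSE-BPR. Pax8, Msx2 and Trim12a complete the 12. Ryr3, Ctnnd2 and Nell1 were lower in the 2 tumours that stand apart or 1 of them: Ctnnd2 was 0.665 CPM in GEMM replicate 1 against 13.9 to 30.2 in the other 5.

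Among genes lower in Ovgp1-BPR, Scn10a, a sodium channel of sensory neurons, had no count in the 6 Ovgp1-BPR libraries and 4.78, 31.5 and 64.8 CPM (lowest, median, highest) in OSE-BPR. This was at least 203-fold lower against a floor of 3 counts per library. Nmur2, a neuromedin U receptor, and Pla2g4e, a cytosolic phospholipase, had 1 and 2 counts in all Ovgp1-BPR libraries and were at 3.56 to 154 and 6.21 to 36.5 CPM in OSE-BPR. Nos1 (chromosome 5, 117781032 to 117958840), the neuronal nitric oxide synthase, was at 66, 110 and 311 CPM in OSE-BPR and 0.0535, 0.465 and 1.04 in Ovgp1-BPR (-7.91 ± 0.66, adjusted p = 2.8e-06). Unlike Lhx9 it was not low in the 3 OSE-BPR tumours that stand apart. Tdh, the threonine dehydrogenase, was lower by 8.36 ± 1.32 (adjusted p = 0.00052; 17.1 to 386 CPM in OSE-BPR and 0 to 3.21 in Ovgp1-BPR). Dcaf12l1 was lower by 8.36 ± 0.90 (adjusted p = 2.5e-05), and Slc38a4, a neutral amino acid transporter, by 8.05 ± 0.84 (adjusted p = 2.1e-05). Nell2, a relative of Nell1, was lower by 7.57 ± 1.04 (adjusted p = 0.00018). Zim1, Igf2, Gbp2b and Lhx9, given with their lists, complete the 12. Nell1 and Nell2 thus ran opposite ways. In the 12 Ad-BPR and Pax8-BPR tumours Scn10a was at 0 to 0.0566 CPM, Tdh at 0 to 0.0707, Nos1 at 0 to 14.7 and Slc38a4 at 0.0552 to 9.57.

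**Figure D3:**
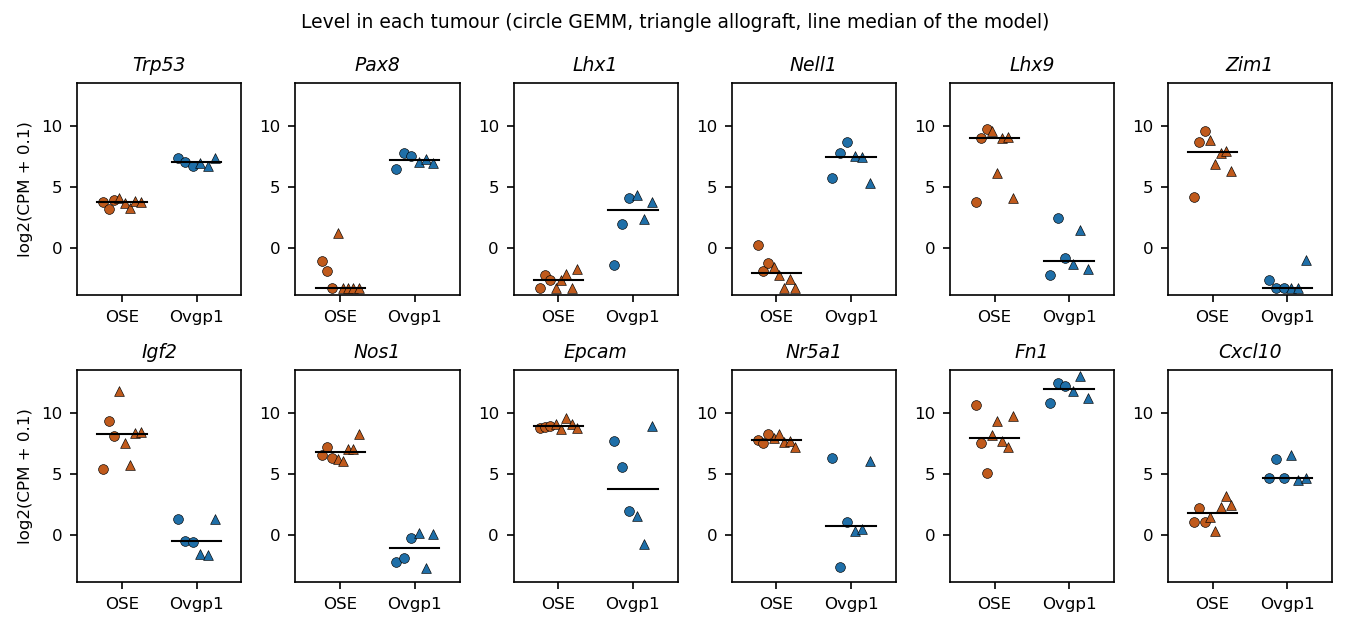
Level of 12 genes in each of 14 tumours, as log2(CPM + 0.1), with circles for GEMM tumours, triangles for allografts and a line at each model's median. The models do not overlap for Trp53, Pax8, Nell1, Lhx9, Zim1, Igf2 and Nos1, and Epcam and Nr5a1 spread widely within Ovgp1-BPR.

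Of 13 tested imprinted and oncofetal growth genes, 3 were higher in Ovgp1-BPR and 6 were lower (median -1.56), against 16.4% of all genes lower. The count of 6 held in each fit that left out 1 tumour. Without the 2 tumours that stand apart 2 were higher and 6 lower. Igf2 (chromosome 7, 142650766 to 142666816), the fetal insulin-like growth factor, was at 43.2, 303 and 3613 CPM in OSE-BPR and 0.214, 0.605 and 2.38 in Ovgp1-BPR (-9.03 ± 1.37, adjusted p = 0.00038). OSE-BPR allograft replicate 1 was the highest. Its neighbour H19, a noncoding RNA expressed from the other parental copy, was at 73.2 to 874 and 2.44 to 7.34 CPM (-6.62 ± 0.60, adjusted p = 6e-06). Zim1 (chromosome 7, 6671269 to 6696450), a maternally expressed zinc-finger gene, was at 17.6, 233 and 743 CPM in OSE-BPR and at most 0.399 in Ovgp1-BPR (-11.64 ± 1.17, adjusted p = 1.6e-05). Peg3, the paternally expressed gene beside it, was at 564 to 2768 CPM in OSE-BPR. In Ovgp1-BPR it was at 15.8 and 162 in the 2 tumours that stand apart and at most 1.44 in the others (-6.03 ± 1.54, adjusted p = 0.0096; -9.12 without Ovgp1-BPR allograft replicate 3). In the 12 other tumours Igf2 was at 1.35 to 49.3, Zim1 at 0 to 3.1 and Peg3 at 1.12 to 11.6 CPM, while H19 reached 578 in a Pax8-BPR tumour. In the other direction Igf2bp2, an RNA-binding protein of Igf2 messenger RNA, was higher in Ovgp1-BPR by 2.70 ± 0.68 (adjusted p = 0.0089). Meg3, a maternally expressed noncoding RNA, was higher by 2.98 ± 0.79 (adjusted p = 0.012), a call lost without Ovgp1-BPR allograft replicate 3 (adjusted p = 0.058).

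Epithelial and mesenchymal genes divided the Ovgp1-BPR tumours themselves. Epcam, an epithelial adhesion molecule, was at 209 and 499 CPM in Ovgp1-BPR GEMM replicate 1 and allograft replicate 3 and at 47.6, 3.74, 2.88 and 0.481 in the other 4, against 409 to 759.6 in OSE-BPR. With all 14 tumours the difference of -2.00 ± 1.08 did not pass (adjusted p = 0.17). Of 28 tested epithelial junction and regulator genes 5 were higher in Ovgp1-BPR and 2 lower (median 0.28), but 1 was higher and 8 lower without those 2 tumours (median -1.67). With all 14 tumours 25% of the list was called, against 32.4% of all genes, and 16% of all genes were higher. Without those 2 tumours 2860 of 17356 genes were higher and 3466 lower. Of the fits that each left out 1 tumour, that without Ovgp1-BPR allograft replicate 3 had 2 higher and 5 lower. That without OSE-BPR allograft replicate 5 had 3 higher and that without Ovgp1-BPR allograft replicate 2 had 8 higher. The direction also depended on the method with all 14 tumours kept. DESeq2 called 6 higher and 2 lower, and limma-trend on log2(TPM + 1) called 1 of 27 higher and 6 lower (median -0.44). The summed level was 2204 to 3218 CPM in OSE-BPR and 455 to 5167 in Ovgp1-BPR, whose 2 tumours that stand apart were at 2770 and 5167. Tmprss2, a membrane serine protease, was at 0.267, 6.52 and 42.5 CPM in Ovgp1-BPR and 0, 0.326 and 0.796 in OSE-BPR (5.03 ± 0.96, adjusted p = 0.0018). Cldn4 and Cldn7, tight junction claudins, were higher by 4.31 ± 1.24 and 4.72 ± 1.40 (adjusted p = 0.018 and 0.02). Both calls were lost without Ovgp1-BPR allograft replicate 3, at 2.06 and 1.59 with adjusted p = 0.36 and 0.54. Cgn, the junction protein cingulin, was lower in all 6 Ovgp1-BPR tumours, at 86.7 to 415 against 629 to 1068 CPM (-1.97 ± 0.33, adjusted p = 0.00073). So was Cdh3, the placental cadherin, at 2.81 to 55.7 against 97.1 to 208 (-2.73 ± 0.60, adjusted p = 0.0042).

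Of 22 mesenchymal transition genes 11 were higher in Ovgp1-BPR and 2 lower, with a median of 1.03 and against 16% of all genes higher. The counts were 11 and 2 again without the 2 tumours that stand apart. Taken by kind, 1 member was called between GEMM tumours and 7 between allografts, against 7.44% and 15.4% of all genes. The summed levels overlapped, at 1772 to 6970 CPM in OSE-BPR and 5555 to 11380 in Ovgp1-BPR. In OSE-BPR 14 of these genes were below the mean of Ad-BPR and Pax8-BPR and 4 above. In Ovgp1-BPR 8 were below that mean and 6 above. The shares of all genes were 29.2% below and 30.1% above in OSE-BPR, and 22.8% and 24% in Ovgp1-BPR. The count above in Ovgp1-BPR was thus near the background. Prrx1, a mesenchymal homeobox factor, was at 33.3, 53.3 and 104 CPM in Ovgp1-BPR and 0.937, 1.78 and 8.5 in OSE-BPR, with no overlap (4.28 ± 0.58, adjusted p = 0.00017). Fn1, the matrix protein fibronectin, was at 1845, 4128 and 8332 and 34.4, 250.1 and 1567 CPM (3.16 ± 0.70, adjusted p = 0.0042). The highest OSE-BPR tumours were GEMM replicate 1 and allograft replicates 5 and 2. Postn, the matrix protein periostin, was higher by 3.07 ± 0.63 (adjusted p = 0.0027). Cdh2, the neural cadherin, was lower by 2.32 ± 0.54 (adjusted p = 0.006; 7.57 to 106 against 129 to 235 CPM). Leaving out OSE-BPR GEMM replicate 3, Ovgp1-BPR GEMM replicates 2 or 3, or Ovgp1-BPR allograft replicates 1 or 3 left 1 lower. Of 20 fibroblast and matrix genes 2 were higher, among them the surface protein Thy1 (2.64 ± 0.51, adjusted p = 0.002), and 1 was lower. The list had a median of 1.08, which was 0.21 without the 2 tumours that stand apart, 0.39 without allograft replicate 3 of Ovgp1-BPR alone and 0.06 in GEMM tumours alone. The counts without the 2 tumours were again 2 and 1. Of the list 15% was called, against 32.4% of all genes, with summed levels of 2784 to 8104 CPM in OSE-BPR and 4056 to 6527 in Ovgp1-BPR. The higher count was 7 without OSE-BPR GEMM replicate 1 and 1 without OSE-BPR GEMM replicates 2 or 3, OSE-BPR allograft replicates 1, 4 or 5, or Ovgp1-BPR allograft replicates 1 or 2. The lower count was 0 in 10 of the 14 fits. Of 11 smooth muscle genes 3 were higher and 0 lower (median 1.03; 27.3% called, against 32.4% of all genes), such as Tagln, the actin-binding transgelin (2.81 ± 0.47, adjusted p = 0.00075). Without the 2 tumours that stand apart 3 were higher and 1 lower, with a median of 0.57. The summed level of these genes was 199 to 616 CPM in OSE-BPR and 481 to 1024 in Ovgp1-BPR. The part of stromal cells in the mesenchymal difference was not tested.

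**Figure D4:**
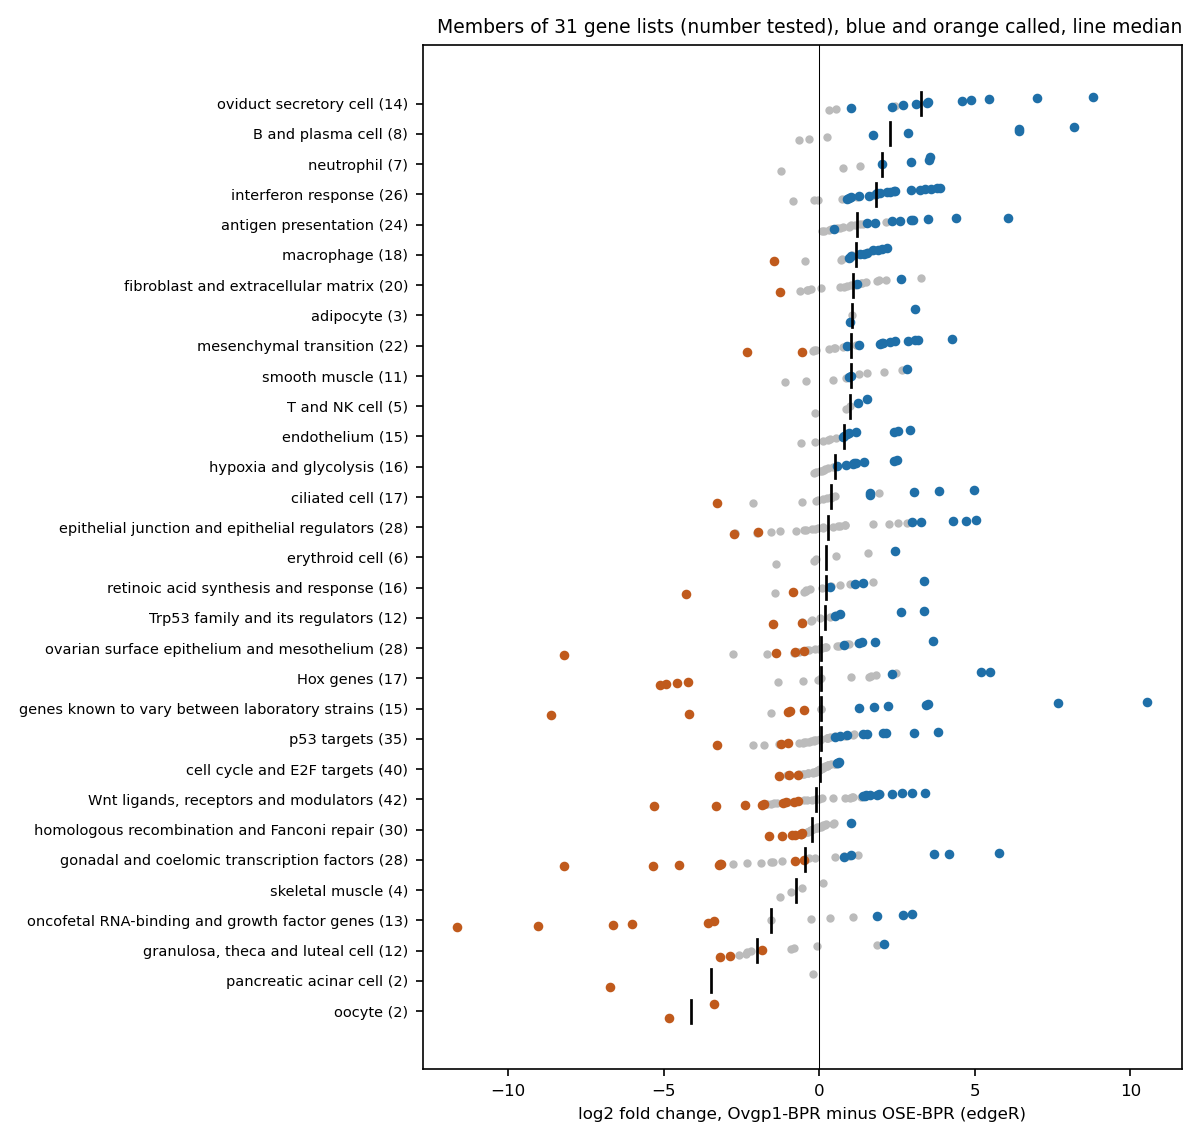
Log2 fold change of Ovgp1-BPR minus OSE-BPR for every tested member of 31 gene lists, ordered by median, with blue points called higher and orange points called lower in Ovgp1-BPR, grey points not called and a line at the median. The oviduct secretory list has the highest median (3.28) and 0 members called lower, and the medians of the oocyte (-4.12), pancreatic (-3.46), granulosa (-2.01) and oncofetal (-1.56) lists are the lowest, with members of the last 2 on both sides of 0.

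Of 35 p53 targets, 9 were higher in Ovgp1-BPR and 3 lower, 34.3% called against 32.4% of all genes, with a median of 0.05. As many as 10 and 6 were called without the 2 tumours that stand apart. Of the fits that left out 1 tumour, 7 were lower without Ovgp1-BPR allograft replicate 3 and 1 without Ovgp1-BPR GEMM replicates 2 or 3 or allograft replicates 1 or 2. Cdkn1a, the cell cycle inhibitor p21 and a main target, was at 15.2 to 123 CPM in OSE-BPR and 16.3 to 93.8 in Ovgp1-BPR (0.02 ± 0.49, adjusted p = 0.98). Mdm2, the ubiquitin ligase that degrades p53, was at 29.3 to 58.2 and 47 to 69.3 (0.33 ± 0.17, adjusted p = 0.15). Eda2r, a death receptor, was the largest rise, from 0.33, 2.02 and 7.28 CPM in OSE-BPR to 15, 29.5 and 75 in Ovgp1-BPR (3.81 ± 0.65, adjusted p = 0.00089). Phlda3, an inhibitor of Akt, was higher by 2.05 ± 0.36 (adjusted p = 0.0011). Gdf15, a stress cytokine, was higher by 2.15 ± 0.56 (adjusted p = 0.011) and Cd80, a costimulatory ligand, by 3.05 ± 0.49 (adjusted p = 0.0006). Ddit4l, an inhibitor of mTOR signalling, was lower by 3.28 ± 0.53 (adjusted p = 0.00058). Of 12 Trp53 family members and regulators 4 were higher, Trp53 and Trp73, its relative (2.64 ± 0.53, adjusted p = 0.0023), among them. Another 2 were lower, such as the kinase Hipk2 (-1.50 ± 0.28, adjusted p = 0.0015), and the counts were 4 and 3 without the 2 tumours that stand apart.

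Of 40 cell cycle and E2F targets, 3 were higher and 3 lower in Ovgp1-BPR, 15% called against 32.4% of all genes. The list had a median of 0.03 and summed levels of 3628 to 6621 and 4548 to 6303 CPM in OSE-BPR and Ovgp1-BPR. The counts were 5 and 6 without the 2 tumours that stand apart, 1 was higher without OSE-BPR GEMM replicate 2, and 5 were lower without OSE-BPR or Ovgp1-BPR GEMM replicate 1. E2f7, a repressor of the cycle, was higher by 0.61 ± 0.14 (adjusted p = 0.0063). The replication factors Cdc6 and Mcm10 were lower by 1.28 ± 0.33 and 0.96 ± 0.23 (adjusted p = 0.0098 and 0.0074). Of 30 homologous recombination and Fanconi genes 1 was higher and 7 were lower (median -0.24), the same counts as without the 2 tumours that stand apart. The share of this list called was 26.7%, below the 32.4% of all genes, and 16.4% of all genes were lower. The lower count was 3 or 4 without OSE-BPR GEMM replicates 2 or 3, OSE-BPR allograft replicates 1, 3 or 5, Ovgp1-BPR GEMM replicate 2 or Ovgp1-BPR allograft replicates 1 or 2. The higher count was 2 without OSE-BPR GEMM replicate 3 or allograft replicate 1. Fancl, the ubiquitin ligase of the Fanconi complex, was at 16.5, 19.3 and 29.3 CPM in OSE-BPR and 5.12, 6.57 and 7.79 in Ovgp1-BPR with no overlap (-1.61 ± 0.18, adjusted p = 3.7e-05). Fancm, a translocase, was lower by 1.20 ± 0.29 (adjusted p = 0.0074), and Fancc was higher by 1.03 ± 0.22 (adjusted p = 0.0038). The Fancl level of Ovgp1-BPR was near that of the other 2 models (4.98 to 12.2 CPM).

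Wnt pathway and Hox genes changed in both directions. Of 42 Wnt ligands, receptors and modulators 10 were higher and 9 lower (median -0.12), or 11 and 13 without the 2 tumours that stand apart. The share called was 45.2% for the Wnt list, 41.2% for the Hox list and 37.5% for the retinoic acid list described last, against 32.4% of all genes. Wnt4, the ligand of female gonad and Mullerian duct development, was at 106, 159 and 315 CPM in Ovgp1-BPR and 6.66, 24.1 and 61.8 in OSE-BPR (2.66 ± 0.44, adjusted p = 0.0007). Dkk3, a secreted modulator, was at 303 to 586 and 16.5 to 128 (2.97 ± 0.41, adjusted p = 0.0002). Neither overlapped between the models. Wnt10a, another ligand, was lower by 3.33 ± 0.68 (adjusted p = 0.0027). Rspo2, an amplifier of Wnt signals, was at 0.178 to 2.34 CPM in OSE-BPR with 3 counts over all Ovgp1-BPR libraries. Of 17 tested Hox genes 3 were higher and 4 lower (median 0.06), or 3 and 6 without the 2 tumours. Of them 1 was higher without Ovgp1-BPR GEMM replicate 2 and 5 without Ovgp1-BPR allograft replicate 1. Hoxb2, an anterior Hox gene, was higher by 5.48 ± 0.83 (adjusted p = 0.00039; 1.35 to 26.6 against 0 to 0.391 CPM). Hoxc6 and Hoxc9, of the HoxC cluster, were lower by 4.91 ± 1.29 and 5.11 ± 1.34 (adjusted p = 0.011 and 0.011). Hoxc6 was at 0.571 and 0.0659 CPM in OSE-BPR GEMM replicate 1 and allograft replicate 5 and 17.3 to 152 in the other 6. Of 16 retinoic acid genes 4 were higher and 2 lower (5 and 3 without the 2 tumours that stand apart, and 7 higher without OSE-BPR GEMM replicate 1). Aldh1a3, which makes retinoic acid, was higher by 3.37 ± 0.69 (adjusted p = 0.0028). Rbp4, the retinol carrier, was lower by 4.30 ± 0.87 (adjusted p = 0.0026).

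Interferon response genes were higher in Ovgp1-BPR in 18 of 26 cases with 0 lower (median 1.82), against 16% of all genes. Without the 2 tumours that stand apart 16 were higher and 1 lower. Their summed level was 542 to 1050 CPM in OSE-BPR and 798 to 1829 in Ovgp1-BPR. Taken by kind, 1 member was called between GEMM tumours and 19 between allografts, against 7.44% and 15.4% of all genes. The median was 0.92 in GEMM tumours alone and 2.33 in allografts alone. The test of whether the difference depended on kind called 0 members. In the fit of 26 tumours, 21 of these genes were below the mean of Ad-BPR and Pax8-BPR in OSE-BPR and 0 above. Of all genes 29.2% and 30.1% were. In Ovgp1-BPR 8 were below that mean and 2 above, where 22.8% and 24% of all genes were. The rise is thus over OSE-BPR and not over the other models. Cxcl10, an interferon-induced chemokine, was at 22.8, 25.1 and 93.4 CPM in Ovgp1-BPR and 1.12, 3.56 and 8.9 in OSE-BPR, with no overlap (3.60 ± 0.50, adjusted p = 0.00021). Cxcl9, its relative, was at 0.569 to 4.14 against at most 0.227 CPM (3.80 ± 0.67, adjusted p = 0.001). Zbp1, a nucleic acid sensor, was higher by 3.38 ± 0.76 (adjusted p = 0.0046). The 12 other tumours had 3.28 to 95.3 CPM of Cxcl10, a range that holds the medians of both models. Antigen presentation genes were higher in 10 of 24 cases with 0 lower (median 1.23). They were higher in 3 with 1 lower without the 2 tumours that stand apart, in 4 without Ovgp1-BPR GEMM replicate 1 or allograft replicate 3 alone, and in 6 without OSE-BPR allograft replicate 3. By kind, 1 of the 24 was called between GEMM tumours and 10 between allografts. Compared with the mean of Ad-BPR and Pax8-BPR, 21 of the 24 were below in OSE-BPR and 4 in Ovgp1-BPR, with 0 above in either. The shares of all genes were those given for the interferon list. H2-T22 (chromosome 17, 36037128 to 36042747), a nonclassical class I gene, was at 59.6, 126 and 174 CPM in Ovgp1-BPR, 3.68, 4.78 and 11.4 in OSE-BPR and 61.6 to 393 in the 12 other tumours (4.40 ± 0.33, adjusted p = 1.2e-06). H2-T23 was higher by 3.50 ± 0.63 (adjusted p = 0.0012). H2-Eb1, a class II chain, was higher by 6.07 ± 1.02 (adjusted p = 0.00078), led by the 2 tumours that stand apart at 229 and 331 CPM. H2 genes have near-identical copies, among which reads are shared in proportion, so values of single members are uncertain.

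A list of genes known to vary between laboratory strains had 7 of 15 tested members higher and 5 lower (median 0.06; 80% called, against 32.4% of all genes). The list was chosen with earlier results of these data known, so its share called is not a test of strain. The counts were 6 and 5 without the 2 tumours that stand apart, and 3 were lower without Ovgp1-BPR allograft replicates 1 or 2. Trim12a (chromosome 7, 104299894 to 104315466), a tripartite-motif gene of innate immunity, was at 36.1, 46.5 and 57.7 CPM in Ovgp1-BPR, with 3 counts over all OSE-BPR libraries. It was at 11.9 to 34.8 in the C57Bl/6 tumours of the other 2 models. Trim30d beside it was at 1.46 to 17.6 CPM, also with 3 counts in OSE-BPR. Fgfbp3, a binding protein of fibroblast growth factors, was higher by 3.49 ± 0.33 (adjusted p = 9.7e-06), yet its 0.647 to 13.9 CPM in the other C57Bl/6 models reached the OSE-BPR range of 0.739 to 1.64. Gbp2b, an interferon-induced guanylate-binding protein, was lower by 8.62 ± 1.37 (adjusted p = 0.00053; 1.85 to 157 CPM in OSE-BPR and at most 0.15 in Ovgp1-BPR). For Trim12a, Trim30d, H2-T22 and Gbp2b the 3 C57Bl/6 models were on 1 side and OSE-BPR on the other. For Nell1, Upk1b and Trp53 every Ovgp1-BPR tumour lay above the tumours of the other 3 models. Strain, and the match of reads from FVB tumours to the C57BL/6J reference genome, cannot be told apart from model for these genes.

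Markers of immune cells moved with the 2 Ovgp1-BPR tumours that stand apart. Of 18 macrophage genes 9 were higher and 1 lower (median 1.18), but 3 and 2 without those tumours. Of all genes 16% were higher, and 2860 of 17356 without those tumours, a share near that of 3 of 18. The summed level was 233 to 728 CPM in OSE-BPR and 281 to 2084 in Ovgp1-BPR. Over the fits that left out 1 tumour 4 to 10 were higher, fewest without Ovgp1-BPR allograft replicate 3. Set against the mean of Ad-BPR and Pax8-BPR, 16 of the 18 were below and 1 above in OSE-BPR. In Ovgp1-BPR 10 were below that mean and 0 above. The shares of all genes were 29.2% below and 30.1% above in OSE-BPR, and 22.8% and 24% in Ovgp1-BPR. Adgre1, the macrophage marker F4/80, was at 10.9, 14.3 and 47.8 CPM in Ovgp1-BPR and 3.06, 5.35 and 11.4 in OSE-BPR (1.88 ± 0.41, adjusted p = 0.0039), highest in allograft replicate 3 and GEMM replicate 1. Mertk, a phagocytic receptor, was lower in all 6 (-1.44 ± 0.20, adjusted p = 0.00017). Of 8 tested B and plasma cell genes 5 were higher (4 higher and 1 lower without those 2). Igkc, the antibody kappa chain, was at 767 CPM in Ovgp1-BPR allograft replicate 3, 43.3 in GEMM replicate 1 and at most 2.88 in the other 4. Its call (8.20 ± 1.72, adjusted p = 0.0032) was lost without that allograft (4.63, adjusted p = 0.11). Pax5, the B cell lineage factor, did not follow it. It was highest in Ovgp1-BPR allograft replicate 1 and GEMM replicate 3, at 26.2 and 11.8 CPM (6.44 ± 1.08, adjusted p = 0.00077). The B cell gene Ms4a1 was too low to test. Of 20 T and NK cell genes 5 could be tested and 2 were higher, with Cd3d, Cd3e, Cd8a and Foxp3 too low to test. Without those tumours 0 were higher. The count was 0 or 1 in each fit that left out 1 tumour other than OSE-BPR GEMM replicates 1 or 2, OSE-BPR allograft replicate 4 or Ovgp1-BPR GEMM replicate 2. Of 7 tested neutrophil genes 4 were higher (2 without those tumours), such as Il1b (2.95 ± 0.69, adjusted p = 0.0059). The summed T and NK level was 3.94 to 7.21 CPM in OSE-BPR and 4.33 to 11.2 in Ovgp1-BPR. The part of immune cells in the interferon and antigen presentation differences was not tested.

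Of 15 endothelial genes 8 were higher and 0 lower, where 16% of all genes were higher (median 0.79; 6 without the 2 tumours that stand apart, and 5 without Ovgp1-BPR allograft replicates 1 or 3 alone). Their summed levels were 253 to 442 CPM in OSE-BPR and 523 to 871 in Ovgp1-BPR and did not overlap. Compared with the mean of Ad-BPR and Pax8-BPR, 10 were below and 2 above in OSE-BPR, and 4 below and 2 above in Ovgp1-BPR. Vwf, the clotting factor of endothelium, was at 14.8, 30.2 and 46.6 CPM against 1.36, 2.55 and 13.3 (2.92 ± 0.40, adjusted p = 0.0002). Flt1, a receptor of vascular endothelial growth factor, was higher by 2.40 ± 0.46 (adjusted p = 0.0019), or by 1.52 without Ovgp1-BPR allograft replicate 3. Of 16 hypoxia and glycolysis genes 8 were higher and 0 lower (median 0.50; 7 and 0 without the 2 tumours), 50% called against 32.4% of all genes. In OSE-BPR 8 were below the mean of Ad-BPR and Pax8-BPR and 1 above, and in Ovgp1-BPR 1 was below and 1 above. For both this and the endothelial list, 29.2% of all genes were below and 30.1% above in OSE-BPR. In Ovgp1-BPR these shares were 22.8% and 24%. Car9, a carbonic anhydrase induced by hypoxia, was at 94.8, 132 and 332 CPM in Ovgp1-BPR and 13.1, 28.4 and 57 in OSE-BPR with no overlap (2.49 ± 0.40, adjusted p = 0.0006). Adm, the vasodilator adrenomedullin, was higher by 2.40 ± 0.39 (adjusted p = 0.00064) and Vegfa, the vascular growth factor, by 1.18 ± 0.22 (adjusted p = 0.0017). Most markers of other tissues were below the minimum for the test. Among them 2 of 15 oocyte genes, 3 of 10 adipocyte, 4 of 10 skeletal muscle, 2 of 8 pancreatic acinar and 6 of 8 erythroid genes could be tested. Of the adipocyte genes 2 were higher, Lipe, a lipase that releases stored fat (0.98 ± 0.23, adjusted p = 0.0058), and Fabp4, a fatty acid binding protein also made by endothelium (3.08 ± 1.07, adjusted p = 0.041). The Fabp4 call was lost in 10 of the 14 fits that left out 1 tumour (adjusted p up to 0.093). The summed adipocyte level was 21.6 to 41.7 CPM in OSE-BPR and 52.6 to 101.8 in Ovgp1-BPR without overlap, while Lipe itself overlapped (19.5 to 41.5 and 28 to 78.9 CPM). The defining genes Adipoq, Plin1, Lep and Cidec were too low to test. The counts were 1 and 0 without the 2 tumours that stand apart and 1 to 3 higher without 1 tumour. The part of adipocytes in the endothelial difference was not tested. Pnlip, a pancreatic lipase, was lower in Ovgp1-BPR (-6.72 ± 0.72, adjusted p = 2.5e-05), at 2.9 to 26.4 CPM in OSE-BPR, where Cpa1, Cpb1 and Prss2 were too low to test. The oocyte genes Padi6 (-4.84 ± 0.63, adjusted p = 0.00013) and Gdf9 (-3.40 ± 0.81, adjusted p = 0.0065) were lower while Zp1, Zp2, Zp3 and Bmp15 were too low to test.

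The comparison was repeated within each kind of tumour in a fit of the 4 groups. Between GEMM tumours (3 against 3) 1243 genes were called, 7.44% of those tested, and between allografts (3 against 5) 2568, or 15.4%. The first count was 463 to 543 without OSE-BPR GEMM replicates 2 or 3 or Ovgp1-BPR GEMM replicates 2 or 3. The second was 1218 to 1661 without OSE-BPR allograft replicate 1 or Ovgp1-BPR allograft replicates 1 or 2. No gene passed a test of whether the model difference depended on kind (0 called by edgeR, 0%; 244 genes had an unadjusted p below 0.05 and the smallest adjusted p was 1). Trp53 had a log2 fold change of 3.44 in GEMM tumours and 3.30 in allografts, and Pax8 9.84 and 8.21. Lhx9 had -7.86 and -8.51, and Nos1 -8.22 and -7.70, and each of these had an adjusted p below 0.05. The Ovgp1 gene had 5.08 in GEMM tumours (adjusted p = 0.03) and 1.37 in allografts (adjusted p = 0.34), where the GEMM value rests on replicate 1. Ifi202b, an interferon-induced DNA sensor, was called lower over all kinds (adjusted p = 0.044), a call lost in 10 of the 14 fits that left out 1 tumour. It was at 0 counts in 5 Ovgp1-BPR tumours and 3.6 CPM in allograft replicate 3, against 1.49 to 26.8 in OSE-BPR. Its adjusted p was 0.038 in GEMM tumours and 0.3 in allografts.

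**Figure D5:**
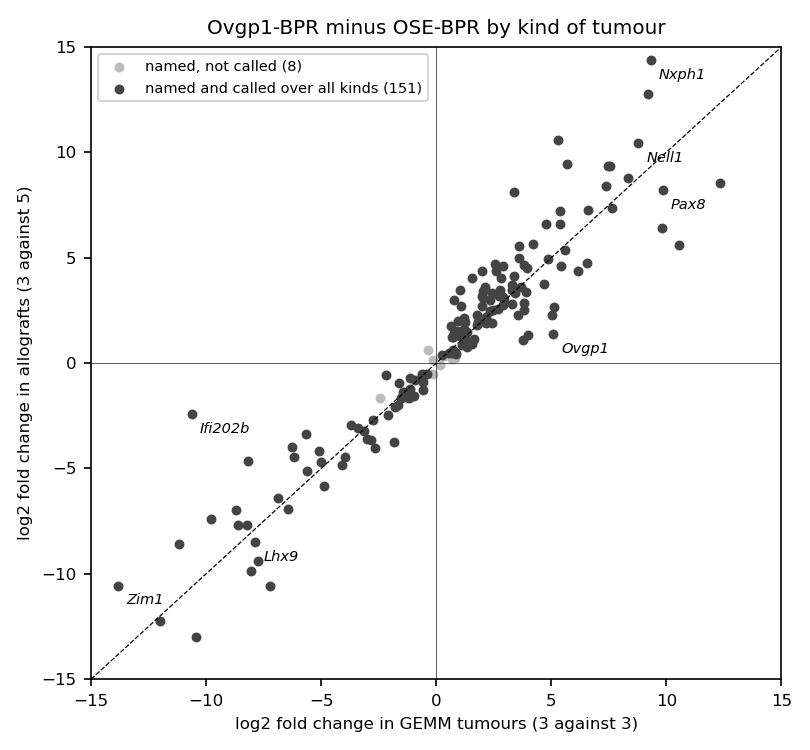
Log2 fold change of Ovgp1-BPR minus OSE-BPR in allografts (vertical) against GEMM tumours (horizontal) for the named genes, 151 called over all kinds (dark) and 8 not called (grey), with a dashed line of equality. Most points lie near the line, with Ovgp1 below it and Ifi202b also off it. Of the named genes, 12 each way were chosen to have the same sign in both. Fitted values of genes near 0 counts in 1 model, such as Nxph1, depend on the prior count.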

How the data were processed

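Bulk RNA of 14 tumours was compared, with 12 further tumours and 6 normal tissues as context. The authors deposited RSEM expected counts, which divide reads shared by several genes in proportion, and TPM values, in which each count is taken per unit of gene length and every library sums to the same total. Per the submitters' processing notes, processing used RSEM 1.3.1, STAR 2.7.0f, cutadapt 1.18, bcl2fastq and Picard, with mm10 and GRCm38. The sources used here do not give the strandedness, so antisense and overlapping genes are uncertain. All columns were mapped to samples (0 left over), and 55450 of 55450 gene IDs matched GENCODE M21.

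Expected counts were rounded and tested in R 4.3.3 with edgeR 4.0.16: TMM factors, filterByExpr (minimum count 10, minimum total 15, which kept 99.8% of counts), kind as covariate, and Benjamini-Hochberg adjusted p with 0.05 as the threshold. A model of 4 groups gave the contrasts by kind, and a fit of 26 tumours the context; CPM of Ad-BPR and Pax8-BPR use the scaling of that fit. Log2 CPM for the components used a prior count of 2. limma 3.58.1 and DESeq2 1.42.0 served as alternatives. The scripts were checked on simulated data.

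No 2 libraries looked like copies: over 19 pairs within groups, the lowest chi-square per degree of freedom was 47.3. Named genes were the 12 largest each way under the conditions given in the text, up to 4 called members of each list in the direction most of it took with up to 2 in the other, and 12 genes fixed by name. Members, lists and rules were chosen with earlier results of these data known.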

Additional observations from a re-analysis of the deposited data

Results flagged for a closer look

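Each named gene was searched, within each model, for a single tumour whose gap to its nearest neighbour took up most of the model's range. Of 318 pairs of gene and model, 28 had one. The cutoff is one that about 1 in 20 sets of independent, normally spread values would pass. That share is no yardstick here. The genes were chosen by their differences and share tumours, and pairs with very low levels could not be flagged. Ovgp1-BPR GEMM replicate 1 was that tumour for 6 genes: it was high in Ovgp1 (835.9 CPM, others 8.639 to 37.64) and Smtn, a smooth muscle gene (241.4, others 134.8 to 165.5), and low in Ctnnd2 (0.6649, others 13.88 to 30.16), Ryr3 (5.153, others 34.89 to 61.15), the retinoic acid receptor Rarg (37.79, others 67.04 to 87.62) and the deubiquitinase Usp7 (155.3, others 191.2 to 216.3). Ovgp1-BPR allograft replicate 3 was high in the B cell receptor gene Cd79b (3.545 CPM) and in Ifi202b (3.595, others 0) and low in Twist1, a mesenchymal factor (11.39). Ovgp1-BPR allograft replicate 2 was low in the endothelial genes Emcn (3.475 CPM) and Plvap (7.324, others 36.18 to 60.41) and in Mcm10 (17.27), and high in Fam47e (19.14). Ovgp1-BPR GEMM replicate 2 was high in Sfrp2, a Wnt modulator (95.05 CPM, others 7.702 to 15.14), and GEMM replicate 3 in Rb1 (66.69) and Tdh (3.215).

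In OSE-BPR, allograft replicate 2 was high in Cacna2d3 (3.186 CPM), the antibody genes Ighm (3.13) and Igkc (3.018) and Meg3 (6.372). Allograft replicate 1 was high in Pax8 (2.198 CPM, others 0 to 0.3567), Fancl (29.29) and the Wnt receptor Fzd10 (2.139), and allograft replicate 3 in Dcn (520.4, others 147.9 to 228.6) and Epcam (759.6). GEMM replicate 1 was low in the proliferation marker Mki67 (216 CPM, others 472.7 to 762.3) and high in Nell1 (1.07), and GEMM replicate 3 was low in Flt1 (7.808).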

How the results depend on the processing

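The 5423 genes called between the models became 8209 with limma voom and sample quality weights (4206 lower), 407 from the GEMM tumours alone (194 higher, 213 lower) and 2257 from the allografts alone (1285 higher, 972 lower), the last 2 with fewer samples; the cause of the first was not tested. Leaving out 1 tumour gave 4294 to 5779 over all kinds, 463 to 1624 of 1243 for GEMM tumours and 1218 to 2810 of 2568 for allografts. Of 151 called named genes 29 were called in the same direction in every one of 26 settings that gave a value, 113 in all 14 fits that left out 1 tumour, and 0 reversed a call. The share of calls higher in Ovgp1-BPR was 49.4%, and ran from 45.2% without the 2 tumours that stand apart to 56.9% for allografts alone. No paired analysis was possible because the labels give the tumours no replicate numbers that the groups share, and the numbers used here follow accession order. Total counts of 13.99 M to 20.19 M leave genes with few counts at their floor of 3 counts per library, where folds are uncertain.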
